A study of Mus musculus with 24 samples.

Results

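Peaks that hold a start codon were described in MeRIP-seq lists of mouse kidney. In MeRIP-seq, fragmented mRNA is enriched with an antibody against m6A, and stretches with an excess of reads are listed as peaks. A listed peak was a member when it lay on the strand of a protein-coding gene of at least 2 exons, held the whole start codon of the transcript with the longest CDS, and did not hold the stop codon of the same transcript. Of 91013 listed peaks in 12 kidneys, 8865 were members. They held the start codons of 1804 of 20017 such genes. A further 1783 peaks held both codons of a gene and were left out. In 27 members the start codons of 2 or more genes were held, and 24 members also held a stop codon of another gene. Overlapping peaks (1 bp or more) of different kidneys were merged into 16801 loci, of which 1797 had a member and are called start codon loci. A kidney was counted at a locus when any of its peaks lay there, whether or not that peak held the codon.

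All mice were male C57BL/6 aged 8 weeks, with 4 kidneys per group. Control mice received vehicle (normal saline) intraperitoneally each day for 14 days and then vehicle intravenously. Mice of the injury group (IG) had the same daily vehicle and then cisplatin at 20 mg/kg, and mice of the treatment group (TG) had daily berberine at 20 mg/kg instead, followed by the same cisplatin dose. Kidneys were collected 72 h after the intravenous injection. No group with berberine alone was among the samples used, and TG was compared with IG (TvI) and with control (TvC), and IG with control (IvC). Whole kidney was used, in which fewer cells of a type and less RNA per cell cannot be told apart, and mRNA amounts were not analysed here.

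The start codon is where the ribosome joins its subunits and begins translation after scanning the 5′ UTR. m6A is written on nascent mRNA by a complex with the catalytic subunit METTL3 and its partner METTL14, usually within the consensus that contains GGAC, and is read by proteins of the YTH domain family. It is best known near stop codons and in long internal exons, while m6A at the 5′ end of mRNA has been linked to translation that does not need the cap. At the first transcribed base, adenosine can carry a related modification, m6Am, which antibodies against m6A also bind.

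The sequences below belong to start codon loci that were listed in all kidneys of a group and in none of another. They were picked among such loci after their values were seen. Each was read from the GRCm38 genome on the strand of the mRNA. In the first set the start codon is in capitals after 9 bases of 5′ UTR. Casr and Serbp1 had a peak in every control and in no IG kidney, Serpina3n and Zfp365 had the reverse, and the Bcl2l1 peak of the controls was listed in no TG kidney.
Serpina3n start codon: acacagaagATGgccttcattgcagctctg
Casr start codon: ggcagagccATGgcatggtttggctactgt
Gnaz start codon: tgccggaccATGggatgtcggcaaagctca
Nim1k start codon: gcatagacgATGacagcagtgtttgtgaat
Zfp365 start codon: ttcagagtgATGcaacagacgacttttgag
Bcl2l1 start codon: attataaaaATGtctcagagcaaccgggag
Serbp1 start codon: gccaccatcATGcctgggcacctacaggaa
The second set shows, for 6 of these genes, the GGAC nearest to the start codon on the mRNA strand, in capitals, which marks a possible m6A site and not a measured one.
Serpina3n nearest GGAC: gaccatgacaatgGGACacaactggacagt
Gnaz nearest GGAC: gcccgctgctgccGGACcatgggatgtcgg
Nim1k nearest GGAC: ggtgggagcggagGGACagcgtggaaagca
Zfp365 nearest GGAC: ggtaccattggcaGGACtcgctggagaatg
Bcl2l1 nearest GGAC: tgttttggacaatGGACtggttgagcccat
Serbp1 nearest GGAC: ttgacgacgaatcGGACcctttcgaggtac
In Gnaz the GGAC lay 5 nt before the start codon, and the codon follows it within the printed stretch. In Bcl2l1 it lay 30 nt before the codon. In the other 4 of these genes it lay inside the coding sequence, 41 nt (Zfp365), 65 nt (Nim1k), 74 nt (Serbp1) and 115 nt (Serpina3n) from the first base of the codon.

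The 12 lists held between 5901 and 9579 peaks. They give a position, a strand and a score, the negative log10 of a p-value times 10, which ran from 13.0 to 3233.1 and was not normalised between kidneys. Read depth is unknown because the lists hold no counts. An unlisted peak may have missed the calling threshold narrowly. Ranks were therefore taken within a list, and scores of different kidneys are given side by side only.

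Start codon peaks made up between 9.01% and 11.1% of each list. Control kidneys held 845, 813, 908 and 863 start codon peaks, IG kidneys 777, 827, 779 and 611, and TG kidneys 655, 569, 568 and 650. The mean was 857.2 ± 39.7 in control and 748.5 ± 94.5 in IG (SD, n = 4 each), with overlap between the groups, while every TG kidney held fewer than every control kidney. The difference was −108.8 peaks in IvC (exact permutation test, two-sided, p = 0.0571), −138.0 in TvI (p = 0.0857, exact) and −246.8 in TvC (p = 0.0286, exact, the smallest value that 70 arrangements allow). None passed adjustment over 10 tests (adjusted p = 0.190 for TvC, exact permutation tests). When each list was cut to its 5901 highest scores, the TvC difference was −3.75 peaks (exact permutation p = 0.83) and the IvC difference turned to 32.5 (p = 0.371, exact). As a share of the list, start codon peaks were 9.59% ± 0.454 in control, 10.1% ± 1.05 in IG and 9.07% to 9.94% in the TG kidneys (SD, n = 4). The differences in share were 0.507 percentage points in IvC (exact permutation p = 0.400), −0.528 in TvI (p = 0.400, exact) and −0.0209 in TvC (p = 0.886, exact). In the plot of counts and shares, TG lies apart from control in number, and all groups overlap in share.

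**Figure D1:**
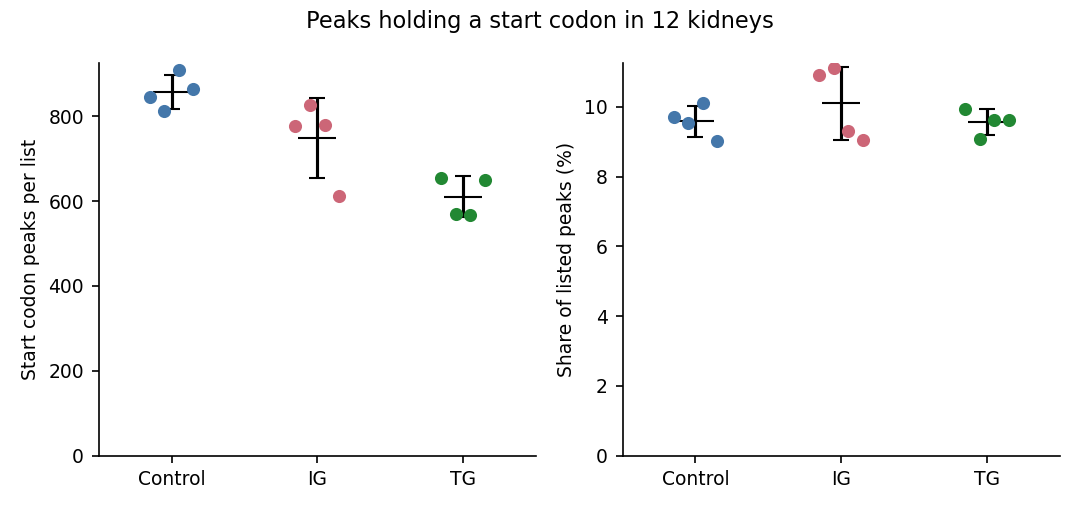
Start codon peaks in each kidney of control, IG and TG mice (points, with mean and SD as bars), as a number per list on the left axis and as a percentage of all listed peaks on the right axis. All 4 TG kidneys (568 to 655) lie below all 4 controls (813 to 908) on the left, whereas the shares overlap between 9.01% and 11.1%.

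The peaks mostly traced an exon. In all kidneys together the median width was 469 bp (interquartile range 210 to 959, from 26 to 5963), and 57.9% of them matched the exon with the start codon from edge to edge. The start codon lay in exon 1 in 49.7% of members and in exon 2 in 39.1%. Only 37.0% held the annotated transcript start, so most members did not reach the annotated first base. More of a peak lay on the coding side: the median was 93 bases before the codon and 252 from the codon on, and 69.7% had more bases from the codon on than before it. The median width per kidney differed by 52.9 bp in IvC (exact permutation p = 0.0571, adjusted p = 0.190) and by −34.4 bp in TvI (p = 0.143, adjusted p = 0.286, exact). The differences were 16.4 bp (p = 0.457, exact) and −55.8 bp (p = 0.0857, exact) with equal list lengths.

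Compared with peaks that held a stop codon, start codon peaks were narrower in every kidney. The median width was 446.6 ± 30.1 bp against 1201.9 ± 14 bp in control (SD, n = 4), and the difference within a kidney averaged −683.4 ± 66.8 bp over 12 kidneys (SD, p = 0.000488 by exact sign flips, a permutation test that allows no smaller value). The share that spanned exactly 1 annotated exon was 48.7 ± 2.60 percentage points higher for start codon peaks (12 of 12 kidneys, exact sign-flip permutation p = 0.000488). A wider peak has more room to hold a codon, and stop codons lie mostly in last exons, and what part annotation has in both values was not tested. Start codon peaks also ranked lower in their own list, with a median percentile 5.01 ± 2.43 below that of stop codon peaks (12 of 12 kidneys, exact sign-flip permutation p = 0.000488). Among peaks scoring at least 71.3, the median over all lists, the difference was 0.473 in the other direction (p = 0.389, exact). The share found in all 3 other kidneys of a group was lower by 2.66 ± 4.37 percentage points than for stop codon peaks, with 8 kidneys below and 4 above (exact sign-flip permutation p = 0.0615). With equal list lengths the difference was −0.0850 (p = 0.943, exact). Against all remaining peaks, start codon peaks were wider by 283.1 ± 37.6 bp in 12 of 12 kidneys and of similar rank (0.719 ± 2.35 percentile points, 7 of 12 above).

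**Figure D2:**
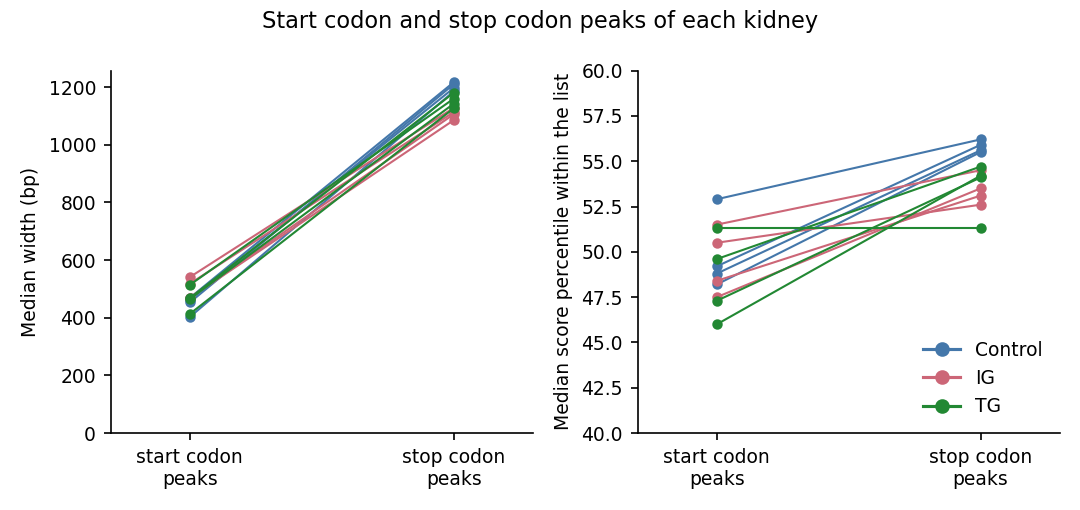
Median width in bp (left) and median score percentile within the list (right, axis from 40 to 60) of start codon and stop codon peaks, with a line for each of the 12 kidneys. All 12 lines rise in the left panel. In the right panel 1 TG line is nearly flat and the others rise.

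Start codon peaks were listed for a larger share of genes where the start codon lay in a longer exon. Since 57.9% of members matched that exon from edge to edge, a signal anywhere in a long exon can count as holding the codon. What part this has in the values below was not tested. Among genes whose stop codon lay in another exon than the start codon, the exon with the start codon had a median of 375 nt in 1737 genes with a start codon peak, 493 nt in 216 genes with the peak in all 12 kidneys, and 216 nt in 5141 genes with listed peaks elsewhere only. For all 17894 such genes it was 215 nt, which is almost the length seen in genes with peaks elsewhere only. The longer part was coding: the coding stretch of that exon had a median of 187 nt in genes with a start codon peak and 350 nt where the peak was in all 12 kidneys, against 103 nt in genes with peaks elsewhere only. The 5′ UTR stretch in the same exon was 92, 60.5 and 84 nt, respectively.

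The share of genes with a start codon peak, among genes with any listed peak, was 14.5% for start exons of up to 100 nt, 18% up to 200 nt, 20.7% up to 400 nt, 31.5% up to 800 nt, 57.6% up to 1600 nt and 75% above that. The rise began at shorter lengths when the codon lay behind the first exon. Between 400 and 800 nt the share was 62.1% of 314 genes with the codon in a later exon and 21.5% of 957 genes with the codon in exon 1, whereas between 200 and 400 nt the shares were 21.9% and 20.2%. Above 1600 nt they were 91.0% of 67 genes and 64.4% of 101 genes. These are descriptions across genes, which are not replicates, and the level of each mRNA was not analysed here.

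**Figure D3:**
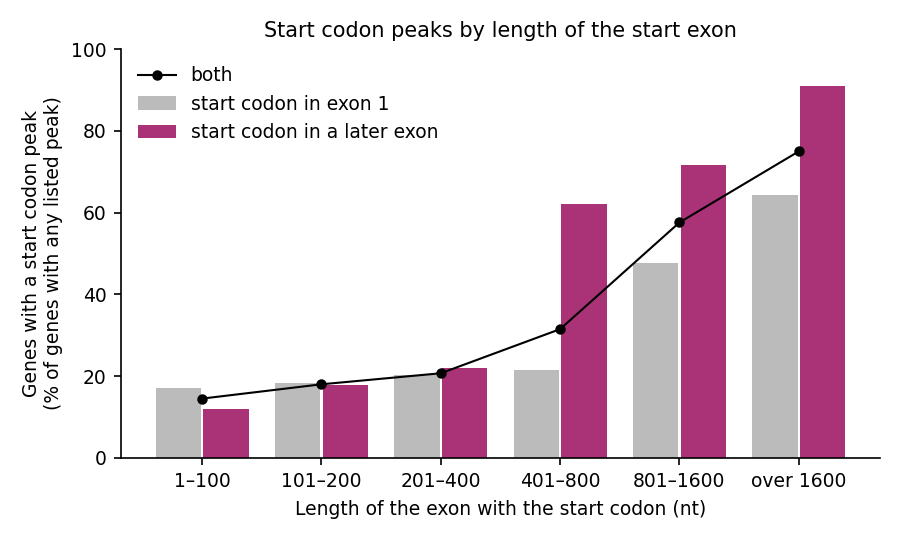
Percentage of genes with a start codon peak in any kidney, among genes with any listed peak, by length of the exon that holds the start codon in nt. Bars give genes with the codon in exon 1 (grey) or in a later exon (purple) and the line gives both together, which rises from 14.5% to 75%.

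The first exon was the site of the start codon in 57.3% of genes with a start codon peak, in 39.8% of those with the peak in all 12 kidneys and in 66.2% of genes with peaks elsewhere only. A GGAC within 100 nt of the start codon was found on the mRNA strand in 64.2% of genes with a start codon peak, 64.5% of genes with peaks elsewhere only and 62.7% of all genes of this kind, but in 56.9% of those with the peak in all 12 kidneys. On the opposite strand the shares were 52%, 56.9% and 54.1%, and 45.4% for the peak in all 12 kidneys. The longer GGACT, which contains GGAC, was present in 21.8%, 21.1% and 21.4%, and in 18.1% of genes with the peak in all 12 kidneys. The first transcribed base was A in 27.9% of genes with a start codon peak, in 26.4% of those with the peak in all 12 kidneys and in 27.3% of those with peaks elsewhere only. A purine 3 bases before the codon together with G just after it, the core of the Kozak context for translation start, was found in 43.8%, 40.7% and 42.8%, respectively. At least 1 ATG in the 5′ UTR was present in 56.6% of genes with a start codon peak and 50.7% of those with peaks elsewhere only, with 5′ UTR medians of 211 and 168 nt, and in 63.9% of genes with the peak in all 12 kidneys, where the 5′ UTR median was 244 nt. The median GC content was 57.8% in genes with a start codon peak, 52.3% where the peak was in all 12 kidneys, and 60.9% in genes with peaks elsewhere only.

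Within the peaks, GGAC was denser on the mRNA strand than on the opposite strand by 1.58 ± 0.0891 sites per kb, in 12 of 12 kidneys (exact sign-flip permutation p = 0.000488). Sites were counted in the reference genome, and the lists share many peaks. The 12 values are therefore not independent, and the SD and p do not measure a spread between animals. In the start exons of all 17894 genes described above, the strands held 5.46 and 4.39 sites per kb. Control peaks held 5.34 ± 0.0844 sites per kb on the mRNA strand and 3.73 ± 0.0452 on the other (SD, n = 4). Around the start codons of genes with peaks elsewhere only, GGAC was also denser on the mRNA strand in the first 50 nt, with a smaller gap between the strands, and the difference between the gaps was not tested. In the first 50 nt from the codon on, the mRNA strand held 6.37 GGAC per kb in genes with a start codon peak and 6.03 in genes with peaks elsewhere only, against 3.89 and 4.73 on the opposite strand. In genes with a start codon peak the mRNA strand was the denser one in each of the 6 bins of 50 nt before the codon as well, by the least from 100 to 50 nt before it (5.13 and 4.97). In the other genes the opposite strand was the denser one in that bin (5.34 and 5.50).

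**Figure D4:**
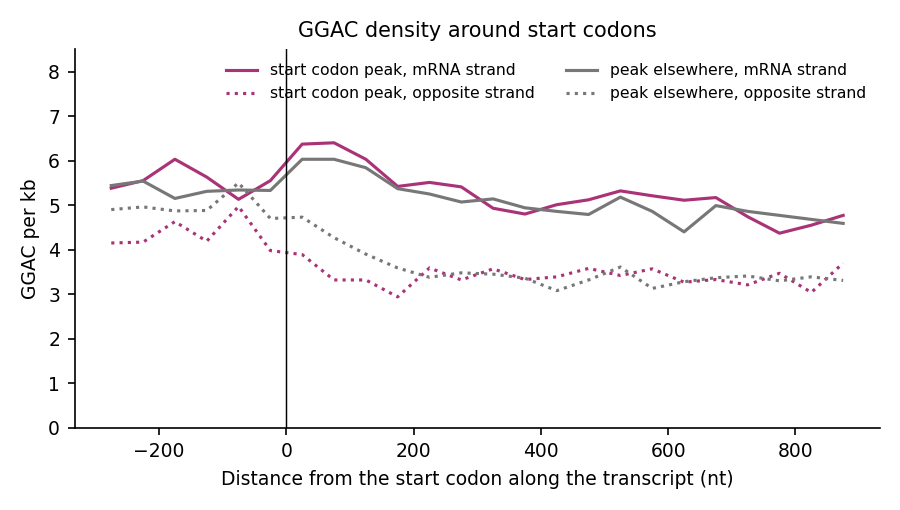
GGAC sites per kb in bins of 50 nt along the transcript from 300 nt before to 900 nt after the start codon (nt), for genes with a start codon peak (purple) and genes with listed peaks elsewhere only (grey), on the mRNA strand (solid) and the opposite strand (dotted). The solid lines run close together, at 6.37 and 6.03 in the first bin after the codon.

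A start codon peak was often not the only peak of its gene. In control, 35.6% ± 2.27 of the genes with a start codon peak had no other listed peak in the same kidney, against 66.8% ± 0.864 of other genes of at least 2 exons that had a single peak (SD, n = 4). The share was lower than in other genes in 12 of 12 kidneys, with a difference of −27.2 ± 3.70 percentage points (exact sign-flip permutation p = 0.000488). A gene with many peaks has more chances to hold one at its start codon, so this value describes the genes and does not compare like with like.

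The share of start codon genes without another peak was 43.6% ± 3.5 in IG and 45.6% ± 2.90 in TG. It was higher by 8.0 percentage points in IvC, where the lowest IG kidney (38.9%) lay above the highest control (38%), and by 10 in TvC (exact permutation p = 0.0286 for both). In TvI the difference was 2.03 (p = 0.400, exact). With equal list lengths the differences were 4.11 in IvC and 3.5 in TvC (exact permutation p = 0.0286 for both). In other genes the share with a single peak was 69.8% ± 1.92 in IG and 69.7% ± 0.586 in TG. Start codon genes lay below other genes in every group, and this gap was narrower by 5.04 percentage points in IvC and by 7.10 in TvC (exact permutation p = 0.0286 for both). Over the 18 tests of this kind, which were chosen after the values were seen, the adjusted p of each of these was 0.0735 (exact permutation tests). Leaving out any 1 control kidney gave a p of 0.0571 in IvC (exact), with differences of 7.09 to 8.79 percentage points.

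A stop codon peak in the same kidney was listed for 27.1% ± 2.43 of genes with a start codon peak in control, 23.2% ± 2.40 in IG and 19.5% ± 1.94 in TG. To compare with other genes, each of which has a peak elsewhere by definition, start codon genes with at least 1 further peak were used. In control 42.0% ± 2.29 of them had a stop codon peak, against 46.7% ± 1.11 of the other genes. The difference was −5.89 ± 2.07 percentage points over 12 kidneys and below 0 in each (exact sign-flip permutation p = 0.000488). In TvC the share with a stop codon peak among all start codon genes differed by −7.55 percentage points (exact permutation p = 0.0286, adjusted p = 0.0735), and the difference was −2.78 with equal list lengths (p = 0.143, exact).

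Most start codon loci were listed in a part of the kidneys. Of 1797 loci, 223 (12.4%) had a peak in all 12 kidneys, against 14.4% of all loci, and 444 (24.7%) in a single kidney, against 23.1% of all loci. Loci in all 12 kidneys had a median score of 297.2 and the codon in exon 1 in 38.6%. Loci of a single kidney had a median score of 21.5 and the codon in exon 1 in 67.6%.

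Among loci of all 12 kidneys, Nufip2, whose protein binds the fragile X protein FMRP, and Tia1, an RNA-binding protein of stress granules, scored 3100.0 in every kidney. That value was shared by 74 of 8865 members (0.835%) and by 1.19% of all peaks, with 5 members above it, so differences among peaks at this value cannot be seen. Upf2, a factor of nonsense-mediated decay, scored 2990.1 ± 89.2 in control, 3131.5 ± 63.0 in IG and 3100.0 in all 4 TG kidneys. Ptms, the gene of parathymosin, was at 3100.0 in all kidneys except 1 of TG, at 2104.9. The other genes among the 10 highest were Cpeb4, a regulator of polyadenylation and translation, Arglu1, Arhgap5, Ybx1, which encodes the RNA-binding protein YB-1, Supt5, an elongation factor of RNA polymerase II, and Rere.

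Some of these loci ranked differently between groups, without being gained or lost. Supt5 (chr7:28338352-28338706, exon 1) scored 951.4, 805.2, 1390.9 and 1095.4 in control, 2249.2, 3100.0, 2246.6 and 2022.6 in IG, and 3100.0, 3100.0, 2620.8 and 3177.3 in TG. Every IG and TG kidney was above every control, also by percentile within the list, which was 93.3 to 96.7 in control, 97.2 to 99.1 in IG and 98.2 to 100 in TG. Maf, a transcription factor gene among the 5 widest loci (chr8:115702144-115707794, median width 4844.5 bp), moved the other way: its percentile was 95.8 to 99.5 in control, 69.9 to 96.3 in IG and 53.9 to 85.2 in TG. Its TG kidneys all ranked below its controls, and its IG kidneys, at 73.4, 83.6, 96.3 and 69.9, overlapped with both groups. Ybx1 scored 3100.0 in all 4 controls, 3100.0, 3100.0, 2119.9 and 199.3 in IG, and 1625.9, 1983.3, 1693.9 and 214.7 in TG. Its TG kidneys all lay below its controls, also by percentile (74.7 to 97.4 against 99.4 to 99.6), and IG lay at 73.5 to 99.1. The 3 genes were singled out after their values were seen, and their scores were not tested.

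Of the 5 widest loci of all 12 kidneys, 4 had start exons of 4720 to 5772 nt, and Maf had one of 1342 nt, shorter than its peak. Tcf20 (chr15:82851513-82857284) had a peak of 5772 bp in every kidney, equal to its exon 2 of 5772 nt. Rai1 (median 5762 bp, exon 3) encodes a nuclear regulator related to the protein of Tcf20. Zfp407, a zinc finger gene on chromosome 18, had a peak of 4720 bp equal to its exon 2, at a percentile of 45.3 to 67.7 in control, 83.6 to 87.7 in IG and 37.1 to 82.7 in TG. Frem2, a basement membrane gene, had a peak in all 12 kidneys, which held the start codon in only 3 control, 2 IG and 1 TG kidneys. The narrowest were Ap2b1, a clathrin adaptor subunit (60 bp), Tbca, a tubulin folding cofactor (60 bp), and Usf3 (65 bp). The 60 bp peak of Tbca scored 1053.4 to 2310.7 over the 12 kidneys, and that of Ap2b1 scored 45.7 to 176.3.

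In IvC, 23 of 1715 start codon loci with a peak in either group were gained, with a peak in all 4 IG and no control kidney, which is 1.34% against 1.35% of all loci. Lost loci, with the reverse, were 40 (2.33%, against 2.73% of all loci). With a difference of at least 3 of 4 kidneys, 76 were gained (4.43%, against 3.82% of all loci) and 143 lost (8.34%, against 8.95%). The shares of start codon loci called were thus close to those of all loci. At single loci the smallest p of Fisher's exact test was 0.0286 in each comparison. In IvC 655 of 16061 loci had an unadjusted p under 0.05 and 0 passed Benjamini-Hochberg adjustment (lowest adjusted p = 0.701, exact test), so the loci below are a description. Control lists were longer than IG lists, and with equal list lengths 26 start codon loci were gained and 23 lost, which makes 53.1% of calls gained instead of 36.5%. These were 2.11% and 1.87% of start codon loci, against 1.97% and 1.93% of all loci, of whose calls 50.6% were then gained instead of 33.1%. With 3 kidneys of IG, when IG kidney 4 was left out, the gained loci were 37.

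The gained locus with the highest score was Serpina3n (chr12:104408654-104409307, exon 2), an acute phase inhibitor of serine proteases. Its peak scored 1855.0, 1321.6, 448.5 and 980.6 in IG and 503.9, 286.0, 1079.2 and 1610.1 in TG, and no control kidney had it. Neighbouring Serpina3 genes are similar in sequence, so reads may have been shared and the locus is uncertain. The peak began 17 bases before the start codon and covered the whole of exon 2 (654 nt). Zfp365 (chr10:67909201-67909959, exon 2), a p53-responsive gene linked to genome stability, scored 167.9, 589.6, 739.1 and 504.9 in IG and 507.4, 596.7, 558.4 and 413.0 in TG. Both loci were thus listed in 8 of 8 cisplatin-treated kidneys and 0 of 4 controls.

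Flnc, the gene of the actin cross-linker filamin C, scored 676.9, 532.1, 186.3 and 28.1 in IG and had a peak in 3 TG kidneys. It differed by 3 kidneys with scores of at least 71.3. Insyn1, which encodes a protein of inhibitory synapses, scored 102.7 to 465.8 in IG and 94.5 to 235.8 in TG. BC061237 scored 204.3 to 305.6 in IG and had a peak in 3 TG kidneys. It is a multicopy gene of chromosome 14, so reads may have been shared with near-identical copies and the locus is uncertain. Of the 23 gained loci, 9 were found in 4, 6 in 3, 3 in 2, 1 in 1 and 4 in 0 TG kidneys. The same counts were not made over all gained loci. At the gained locus Mum1l1 the peak held the codon in 1 of 4 IG kidneys. Other gained loci included Edn1 (endothelin-1), Cdh6 (a cadherin of the nephron), Col13a1 and Aldh1a2 (synthesis of retinoic acid). Edn1 and Cdh6 were picked after their values were seen. In IG, Edn1 scored 19.6, 57.8, 55.4 and 18.6, below 71.3 in every kidney, and Cdh6 scored 175.3, 13.9, 35.2 and 20.7. The IG scores were 67.6 to 333.1 for Col13a1 and 28.6 to 224.9 for Aldh1a2.

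The lost locus with the highest score was Casr (chr16:36517602-36518028, exon 2), the calcium-sensing receptor of the parathyroid and the thick limb. Its peak scored 717.6, 454.2, 820.7 and 901.5 in control, was not listed in IG, and scored 78.8, 69.9, 33.8 and 64.7 in TG. The TG kidneys thus had the peak with lower scores than any control, at percentiles of 30.8 to 54.5 in their lists against 87.5 to 93.5 in control. Nim1k (chr13:119727207-119728523, exon 2), a kinase related to AMPK, showed the same order with 382.9, 318.0, 190.3 and 166.6 in control and 30.2, 49.6, 18.1 and 41.0 in TG.

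Serbp1 (chr6:67266979-67267409, exon 1), an mRNA-binding protein of the ribosome, scored 409.7, 306.7, 688.8 and 544.7 in control and was not listed in any cisplatin-treated kidney. Trir (68.2 to 475.3 in control) and Fmod (113.8 to 385.9 in control), the gene of the matrix proteoglycan fibromodulin, were likewise absent from the lists of IG and TG, and Trir differed by 3 kidneys with scores of at least 71.3. Of the 40 lost loci, 25 were found in 0, 8 in 1, 2 in 2, 2 in 3 and 3 in 4 TG kidneys. TG lists were shorter than control lists, and the same counts were not made over all lost loci. At the lost locus Unc13c the peak held the codon in 1 of 4 control kidneys. Lost loci with 0 TG kidneys included Tgfb1 (transforming growth factor beta 1), Fgfr2 (a fibroblast growth factor receptor), Wee1 (a cell cycle kinase), Map3k1, Brd7 and Zbtb16, which apart from Brd7 were picked after their values were seen. Fgfr2 scored 13.1 to 70.9 in control, below 71.3 in every kidney. The control scores were 42.1 to 85.6 for Tgfb1, 29.8 to 293.6 for Wee1, 33.9 to 97.1 for Map3k1, 78.9 to 124.0 for Brd7 and 52.3 to 214.1 for Zbtb16.

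**Figure D5:**
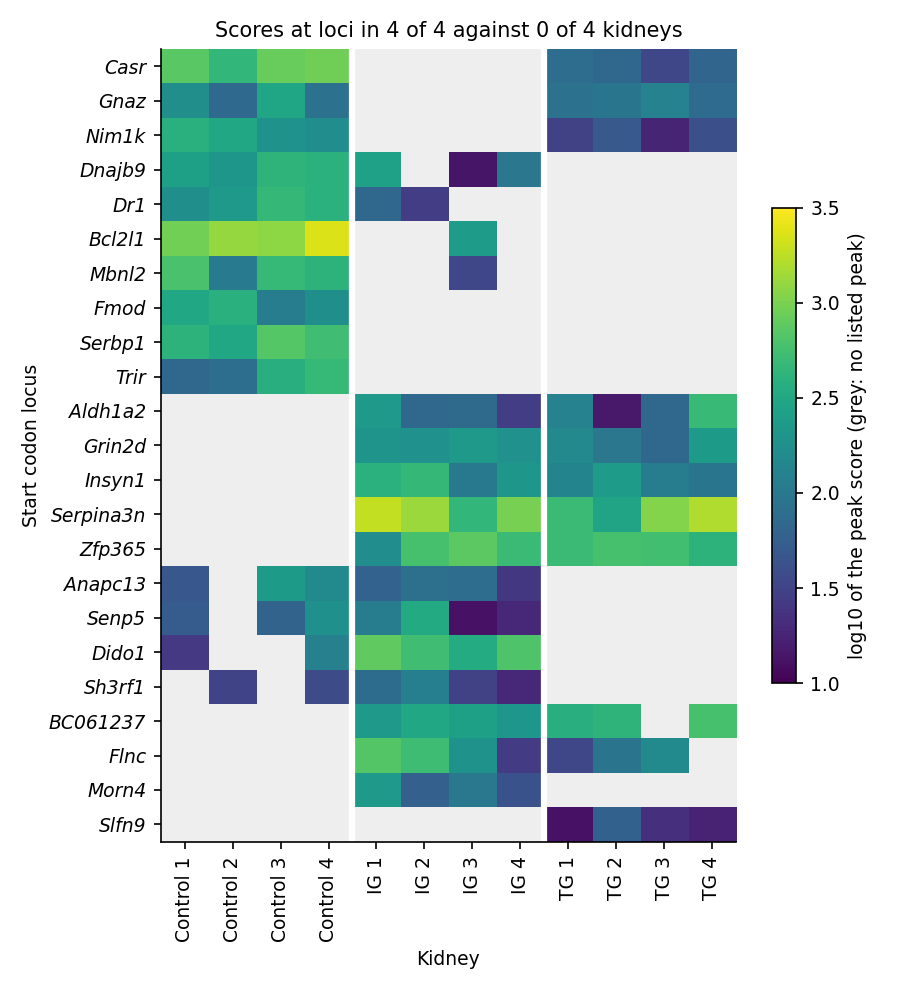
Score, as log10 in colour, at the start codon loci with the highest scores among those in 4 of 4 against 0 of 4 kidneys in IvC, TvI or TvC (rows), in each of the 12 kidneys (columns). Grey means no listed peak. Casr, Gnaz and Nim1k are grey in the 4 IG kidneys only, and Serpina3n is grey in the 4 controls only.

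In TvI, few start codon loci were called. Gained loci were 4 of 1443 (0.277%, against 0.225% of all loci) and lost loci 10 (0.693%, against 0.449% of all loci). With a difference of at least 3 of 4 kidneys they were 17 (1.18%, against 1.28%) and 57 (3.95%, against 3.21%). In this comparison 90 of 13357 loci had an unadjusted p under 0.05 by Fisher's exact test and 0 passed adjustment (lowest adjusted p = 1.00, exact test). With equal list lengths 4 start codon loci were gained and 4 lost (0.333% each), against 0.506% gained and 0.258% lost of all loci. Leaving out IG kidney 1, 2, 3 or 4 gave 20, 16, 17 or 23 lost loci, and leaving out TG kidney 2 or 4 gave 7 or 8 gained loci, since 3 kidneys then suffice.

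All 4 gained loci had the start codon behind exon 1. Gnaz (chr10:74990841-74992140, exon 3), the gene of the G protein alpha subunit Gz, scored 87.4, 94.2, 127.7 and 74.8 in TG and 173.4, 70.9, 302.9 and 85.0 in control, and was not listed in IG. TG and control overlapped in score and in percentile (50 to 66.1 and 49.4 to 82.0). Casr and Nim1k are given above. When only scores of at least 71.3 were used, TG exceeded IG at Casr by 1 kidney and at Nim1k and Slfn9 by 0. Slfn9, a gene of the Schlafen family, had a peak in TG only, at 13.3, 59.8, 22.0 and 17.2, at percentiles of 0.653 to 46.1 in their lists, and other Schlafen copies lie nearby. It differed by 2 kidneys when list lengths were equal.

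The lost locus with the highest score was Dido1 (chr2:180688711-180690161, exon 3), a chromatin-associated gene. It scored 777.3, 547.3, 341.7 and 647.8 in IG, was not listed in TG, and had a peak in 2 control kidneys, at 26.0 and 122.3. Senp5, a SUMO protease, scored 110.9, 340.4, 13.3 and 19.3 in IG and had a peak in 3 controls. Morn4 (chr19:42078484-42079133, exon 2) scored 218.2, 58.6, 99.9 and 42.5 in IG and had no peak in the other groups. The peaks of Dido1 (1142 to 1451 bp) and Morn4 (650 bp) ran past the exons of the transcripts used, of 832 and 100 nt. Anapc13, a subunit of the anaphase-promoting complex, and Sh3rf1, a ubiquitin ligase, scored 25.2 to 84.2 and 19.0 to 120.1 in IG. Senp5 and Sh3rf1 differed by 3 kidneys instead of 4 when list lengths were equal. With scores of at least 71.3, Senp5, Morn4, Anapc13 and Sh3rf1 each differed by 2 kidneys.

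In TvC, 17 of 1575 start codon loci were gained (1.08%, against 0.996% of all loci) and 66 lost (4.19%, against 3.73% of all loci). With a difference of at least 3 of 4 kidneys they were 54 (3.43%, against 2.82%) and 177 (11.2%, against 11.9%). By Fisher's exact test 716 of 15156 loci had an unadjusted p under 0.05 and 0 passed adjustment (lowest adjusted p = 0.605, exact test). With equal list lengths 27 were gained and 29 lost, so gained loci made up 48.2% of calls instead of 20.5%. These were 2.28% and 2.45% of start codon loci, against 2.12% and 1.75% of all loci, of whose calls 54.7% were then gained instead of 21.1%. Without TG kidney 3 the gained loci were 26.

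The highest score among lost loci belonged to Bcl2l1 (chr2:152828187-152830102, exon 2), which encodes the survival protein BCL-XL. It scored 924.6, 1274.4, 1200.9 and 2321.6 in control, 240.8 in 1 IG kidney, and was not listed in the other 3 or in TG. The peaks were 1021 to 1916 bp wide and ran past the exon of the transcript used, which has 676 nt. The controls lay at percentiles of 94.2 to 98.1 of their lists. Mbnl2, a splicing regulator (109.3 to 604.8 in control), also had a peak in 1 IG kidney. Dnajb9, a chaperone cofactor of the endoplasmic reticulum, scored 210.2 to 420.9 in control and had a peak in 3 IG kidneys, and Dr1, a repressor of transcription by RNA polymerase II, scored 176.2 to 458.2 and had a peak in 2. Of the 66 lost loci, 25 were found in no IG kidney, a count that was not made over all lost loci. At the lost loci B3galnt1, Pomgnt2 and Zfp628 the peak held the codon in 0 of 4 control kidneys. Gained loci with the highest scores were Serpina3n, Zfp365, Aldh1a2, Insyn1 and Grin2d, which were listed in all 8 cisplatin-treated kidneys. Aldh1a2 differed by 3 kidneys with equal list lengths and by 2 with scores of at least 71.3, and Grin2d by 3 with that limit.

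With a difference of at least 3 of 4 kidneys, 26 start codon loci changed in opposite directions in IvC and TvI, of 221 among all 16801 loci. The 2 comparisons share the IG kidneys and are therefore not independent. In 9 the peak was listed in at least 3 fewer IG kidneys than in either other group: Casr, Gnaz and Nim1k (4, 0 and 4 kidneys in control, IG and TG), Rpf1 and Slc2a4, the gene of the insulin-responsive glucose transporter (4, 0 and 3), Adat2 and Ociad2 (4, 1 and 4), and Safb2 and Zc2hc1c (3, 0 and 3). In 17 it was listed in at least 3 more IG kidneys than in either other group, with Bco1 in 0, 4 and 1 kidneys, Myo9a and Slco2b1 in 1, 4 and 1, and the remaining 14 in IG kidneys alone. Morn4, Iqcd, Fyb2 and 2700049A03Rik had it in 4 IG kidneys alone, and their scores were 14.7 to 50.5 except for Morn4. Pabpc4, a poly(A)-binding protein, and Serpina3m, a neighbour of Serpina3n and likewise uncertain, had it in 3 IG kidneys alone.

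Gene lists chosen for the kidney and for m6A showed where start codon peaks lay among genes that had any listed peak, which was 24.8% over all genes. In the BCL2 family, which controls apoptosis, 8 of 13 genes with a peak had a start codon peak. Besides Bcl2l1 these were Mcl1, Bcl2, Bbc3, Bcl2l11 and the neighbouring copies Bcl2a1a, Bcl2a1b and Bcl2a1d, which are nearly identical and therefore uncertain. The locus of Bcl2a1a had a peak in 0 control, 3 IG and 4 TG kidneys, which held the start codon in 0 of these IG and 3 of these TG kidneys. Bcl2 had one in 3, 3 and 2 kidneys, Mcl1 and Bcl2l11 in 1 control kidney each, and Bbc3 in 1 IG kidney. Of the respiratory chain 9 of 18 genes with a peak had one at the start codon, which is 8.65% of all 104 genes of the list, against 9.01% of all genes, with Ndufs5 and Ndufaf2 in all 12 kidneys and Uqcrh in 2 controls only. Of the m6A machinery 7 of 16 had one: Rbm15, a writer subunit, and the reader Fmr1 in all 12 kidneys, the nuclear reader Ythdc1 in 4 control, 3 IG and 4 TG kidneys, Ythdc2 in 2 TG kidneys, and Ythdf1, Ythdf3 and Mettl14 in 1 kidney each. Of these 7, 0 differed by 3 kidneys or more in IvC or TvI, where 3.82% and 8.95% (IvC) and 1.28% and 3.21% (TvI) of all loci were gained and lost.

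Of p53 targets 7 of 17 had a start codon peak, among them Zfp365, Xpc, a DNA repair gene (4 control, 3 IG and 2 TG kidneys), and Polk, a translesion polymerase (1, 3 and 0). Of the NRF2 pathway 4 of 9 had one (11.1% of all 36 genes of the list), with Gsta1, a glutathione transferase with close paralogs, in 4, 0 and 1 kidneys. Of the integrated stress response 5 of 15 had one, with Nars in 1, 4 and 3 kidneys and Ppp1r15b in 4, 2 and 0. Among markers of injured tubules it was 2 of 10, Cd44 and Sox9, each in 1 IG kidney, and among AP-1 and immediate early genes 2 of 12.

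Chromatin regulators had a start codon peak in 42 of 125 genes. Ash1l, Brd1 and Bptf were in all 12 kidneys, Brd7 and Arid1a were found in 4 and 3 controls alone, and Hdac1 in 0 control, 3 IG and 1 TG kidneys. Splicing factors and RNA-binding proteins had one in 29 of 94 genes, with 1 gained and 2 lost in IvC by at least 3 kidneys (Celf4, and Mbnl2 and Khdrbs3), where 3.82% and 8.95% of all loci were called. The ubiquitin system had 40 of 208, led by Fbxw7 and Trim44 in all 12 kidneys. Genes of translation had 7 of 38, fatty acid oxidation 5 of 26, Kruppel-like factors 3 of 18, and nephron transcription factors 6 of 27. Collagens, laminins and integrins with their relatives had 3 of 46, which at 6.52% was the lowest share of the 18 lists. These lists are described by their counts and were not tested.

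Among genes of the nephron segments, the shares with a start codon peak were close to the 24.8% of all genes. Of proximal tubule transporters and receptors 4 of 14 genes with a peak had one (28.6%), of which Slc7a8 was in 4, 4 and 3 kidneys. Of the distal nephron it was 5 of 20 (25%), with Casr, Scnn1a, a subunit of the epithelial sodium channel (3, 4 and 4 kidneys), and Slc12a1, the cotransporter of the thick limb (1, 1 and 0). The markers Slc34a1, Lrp2, Slc5a2 and Slc13a3 of the proximal tubule had no listed peak in any kidney. The same held for Umod of the thick limb, Slc12a3 and Calb1 of the distal tubule and Aqp2 of the collecting duct. Of the other markers of these segments, Slc12a1 had any listed peak in 1 control, 4 IG and 0 TG kidneys. Cubn, Slc22a6 and Aqp3 had one in 1 TG kidney each. A missing peak does not show whether these cells were present. For podocytes, Nphs1 had a start codon peak in 1, 4 and 2 kidneys. Of 8 immune markers, Cd74 had one in 4, 3 and 1 kidneys and S100a9 in 2 TG kidneys. No start codon peak was listed for the 3 endothelial, 3 fibroblast or 2 muscle markers. The part of cell makeup in the differences between groups was not tested.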

How the data were processed

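Peak lists of 12 m6A libraries were used, and 12 input libraries were not analysed here. The authors trimmed reads with Cutadapt 1.9.3, aligned them with HISAT2 2.0.4 (mm10, the same build as GRCm38), ran MACS for each kidney and retained peaks over mRNA exons. The version, threshold and control of MACS are not given in the sources used here. The score that the authors deposited is −10 times the log10 of a p-value. Start positions were converted to count from 1. Codons and exons came from GENCODE M21, with the longest CDS per gene. The members and gene lists were chosen with earlier results of these data known. Per-kidney values were compared with two-sided exact permutation tests (4 against 4 kidneys) or sign flips (12 kidneys), loci with Fisher's exact test over all loci and Benjamini-Hochberg adjustment. Named loci are, per comparison and direction, the 5 with the highest mean score among those in 4 of 4 against 0 of 4 kidneys, the 10 highest, 5 widest and 3 narrowest in all 12 kidneys, those with opposite changes, and list members. Score limits, joining rules, strand, equal list lengths and leaving out kidneys were varied. Scripts were tested on simulated data. With no read counts, depth is unknown, and precision rests on 4 kidneys per group. The labels do not say whether kidneys were processed together. The tools were samtools 1.23.1, pysam 0.24.0, matplotlib 3.10.9, scipy 1.17.1, numpy 2.4.6 and Python 3.11.15.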

Additional observations from a re-analysis of the deposited data

Results flagged for a closer look

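The share of start codon peaks found in all 3 other kidneys of the group was 62.4% in IG kidney 4, against 45.8% to 48.5% in the other IG kidneys. The kidney stood apart by a gap of 0.837 of the range of its group, and it had the shortest IG list. Of 27 groups of per-kidney values 1 stood apart in this way. The limit was Dixon's 95% critical value, which about 1 in 20 groups passes by chance.

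Among the scores of named loci, 7 of 61 groups had a kidney that stood apart. Below the rest of their group were Arhgap5 in IG kidney 1 (1907.3, others at 3100.0), Cpeb4 in control kidney 1 (2294.3, others at 3100.0 to 3107.1), Ptms in TG kidney 2 (2104.9, others at 3100.0) and Supt5 in TG kidney 3 (2620.8, others at 3100.0 to 3177.3). Above it were Arglu1 in TG kidney 1 (2996.1, others at 1832.0 to 1959.4), Rere in control kidney 1 (2281.6, others at 2009.0 to 2031.6) and Upf2 in IG kidney 4 (3226.1, others at 3100.0). In 5 of these the other kidneys lay at or near 3100.0.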

How the results depend on the processing

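List lengths differed between groups. With equal list lengths the difference in start codon peaks was 32.5 in IvC and −3.75 in TvC, the share of start codon genes with a stop codon peak differed by −2.78 in TvC, and that without another peak by −0.604 in TvI. The counts were then 23 lost loci in IvC, 4 lost in TvI, and 27 gained and 29 lost in TvC. With only scores at or above 71.3, start codon peaks ranked 0.473 percentile points above stop codon peaks, the share found in all 3 other kidneys was 2.34 percentage points above theirs, widths differed by 19.8 bp in TvI, and the stop codon share differed by −3.70 in TvI (exact permutation p = 0.0286). The loci were then 10 gained and 23 lost in IvC, 2 gained and 7 lost in TvI, and 6 gained and 31 lost in TvC, which is 1.21%, 2.79%, 0.290%, 1.02%, 0.801% and 4.14% of start codon loci against 1.21%, 3.11%, 0.273%, 0.5%, 1.02% and 4.03% of all loci. The cause was not tested. The width difference in IvC was 52.9 bp (exact permutation p = 0.0571, adjusted p = 0.190), 53.9 bp with either strand and 53.1 bp with any overlap of the codon (p = 0.0286 for both). A difference of at least 3 of 4 kidneys gave 76 gained and 143 lost loci in IvC, 17 and 57 in TvI, and 54 and 177 in TvC. Other ways of joining peaks kept all 6 counts within 1.5 times, as did counting only start codons that a listed peak held.

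Same-numbered kidneys were not paired: their deviations correlated by −0.0215 to 0.0492, with 0 pairs over 0.1. With the number as a replicate block, the smallest exact p is 0.125, so no difference could pass: −246.8 start codon peaks and −7.55 percentage points with a stop codon peak in TvC, and 8.0 (IvC) and 10 (TvC) without another peak.

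Leaving out each kidney in turn gave 25 to 37 gained loci in IvC, 4 to 8 gained and 12 to 23 lost in TvI, and 18 to 26 gained in TvC. Start codon peaks differed by −134.9 to −62.9 in IvC and −183.8 to −111.8 in TvI, and passed without IG kidney 2 and without IG kidney 4, respectively. Widths differed by 38.2 to 63.0 bp in IvC and −50.7 to −17.2 bp in TvI. Score percentiles differed by −1.01 to 0.696 in IvC and the shares of listed peaks by 0.171 to 0.852 in IvC, −0.873 to −0.192 in TvI and −0.213 to 0.152 in TvC. The share found in the other kidneys differed from stop codon peaks by −3.0 to −2.33. The stop codon share differed by −5.03 to −2.84 in IvC and −4.47 to −2.52 in TvI, and the share without another peak by 6.76 to 9.55 in IvC.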
